A study of Mus musculus with 6 samples.

Results

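Ephrins are membrane-bound ligands and Eph receptors are the receptor tyrosine kinases that bind them on a neighbouring cell. Signals run both ways across the contact: into the cell that carries the receptor (forward) and into the cell that carries the ephrin (reverse). A-type ephrins are held in the membrane by a lipid anchor, and B-type ephrins span it and carry a short tail inside the cell. In blood vessels, ephrin-B2 (Efnb2) is known as a marker of arteries and its receptor Ephb4 as a marker of veins, and several other members act in axon guidance and in cell sorting.

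The 10 genes described here are the ligands Efna1, Efna5, Efnb1, Efnb2 and Efnb3 and the receptors Epha4, Ephb2, Ephb3, Ephb4 and Ephb6. They were measured on Agilent mouse arrays in 1 colour, among 20128 genes with a symbol and a probe. A probe belonged to a gene when the RefSeq accession in its annotation mapped to that gene's symbol, and control spots stayed out. The genes were chosen with their difference between these same hearts known, so the differences below are given as a description, with a standard error and no test. The hearts came from 8-week-old C57/B6 mice that all carried floxed alleles of PHD2 and PHD3 (PHD2/3f/f), the oxygen-sensing prolyl hydroxylases that mark HIF transcription factors for destruction. In 3 mice Cre recombinase was present (Cre+/-), here called KO hearts, and in 3 it was absent (Cre-/-), here called control hearts. The labels name neither the driver of Cre nor any inducing agent, and state neither which exons are lost nor which sex was used. Their protocols list RNeasy columns for the heart RNA and, separately, a purification kit for blood RNA followed by globin reduction.

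The labels were checked on the targeted genes. Egln1, which encodes PHD2, was lower in all 3 KO hearts, by a log2 difference of -1.23 ± 0.21 (SE, adjusted p = 0.00652 by limma). Egln3, which encodes PHD3, was higher in all 3 KO hearts, with a log2 difference of 1.98 ± 0.17 (SE, adjusted p = 0.00165). A second Egln3 probe was also higher in all 3 KO hearts, by 1.87. This is the opposite of the label, and it is not known whether either probe lies in the deleted stretch. KO and control arrays lay in different columns of 1 slide, so slide position and genotype cannot be told apart. On each array, 46.3% to 51.0% of the probes were well above background, and no tested feature was saturated on any array. Across probes, arrays correlated at 0.977 to 0.987 within the KO group, 0.983 to 0.993 within the control group and 0.921 to 0.970 between them. Of 20014 genes and unnamed features tested with limma, 7817 passed an adjusted p of 0.05, of which 3214 were higher and 4603 lower in KO hearts. Their number was 3904 without control heart 1, 4021 without control heart 3 and 5110 without KO heart 3. Of the genes that passed, 41.1% were higher in KO hearts, against 55.3% with cyclic loess scaling and 60.05% with scaling to spike-in controls. The median log2 difference of all features was -0.11, and it moved by 0.14 with cyclic loess and by 0.24 with the spike-in controls.

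The promoters of 4 of the 5 genes whose KO and control hearts did not overlap are shown because PHD2 and PHD3 act on HIF factors, which bind DNA at the core letters ACGTG or GCGTG. Each window is the 250 bases before a transcript start in RefSeq (GRCm38.p6), written 5′ to 3′ on the gene's strand, with every HIF core on either strand in capitals (CACGT and CACGC are the same letters read from the other strand). Efnb1 lies on the plus strand at chrX:99135811-99136060, Epha4 on the minus strand at chr1:77515089-77515338, Ephb2 on the minus strand at chr4:136836013-136836262 and Ephb6 on the plus strand at chr6:41605261-41605510. For Epha4, Ephb2 and Ephb6 this start lies downstream of the gene's outermost annotated start, so their windows lie partly or wholly within the annotated gene. Efnb3, the fifth, is named only.
Efnb1: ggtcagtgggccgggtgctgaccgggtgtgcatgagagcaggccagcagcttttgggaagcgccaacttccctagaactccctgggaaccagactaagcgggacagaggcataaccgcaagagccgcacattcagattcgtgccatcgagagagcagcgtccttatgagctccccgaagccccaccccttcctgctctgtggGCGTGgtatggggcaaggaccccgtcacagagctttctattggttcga
Epha4: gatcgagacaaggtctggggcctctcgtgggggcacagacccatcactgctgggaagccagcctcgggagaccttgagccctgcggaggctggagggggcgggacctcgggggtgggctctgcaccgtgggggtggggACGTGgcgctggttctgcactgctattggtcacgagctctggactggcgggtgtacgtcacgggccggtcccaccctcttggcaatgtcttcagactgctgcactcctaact
Ephb2: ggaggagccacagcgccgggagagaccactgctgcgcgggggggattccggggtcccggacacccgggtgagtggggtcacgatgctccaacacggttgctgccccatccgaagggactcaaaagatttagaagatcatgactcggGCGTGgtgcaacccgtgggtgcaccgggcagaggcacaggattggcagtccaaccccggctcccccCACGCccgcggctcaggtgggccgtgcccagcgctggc
Ephb6: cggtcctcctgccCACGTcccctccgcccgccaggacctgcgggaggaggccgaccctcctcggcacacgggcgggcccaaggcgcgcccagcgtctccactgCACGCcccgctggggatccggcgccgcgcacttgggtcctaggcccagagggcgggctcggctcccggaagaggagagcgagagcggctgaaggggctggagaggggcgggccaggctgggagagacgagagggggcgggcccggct
The Efnb1 and Epha4 windows held 1 core each, and the Ephb2 and Ephb6 windows 2 each. Of the 9 genes with a window, 6 held a core (66.7%), against 38.6% of 32851 mouse promoter windows of the same length. Among the 9178 windows with at least 60% G and C, a range that holds all windows of these genes, 63.8% held a core. ACGTG is also part of the E-box CACGTG, which was in 0 of these genes' windows. A second motif, AGGTCA on either strand, the half-site bound by many nuclear receptors, was in 0 of the 9 genes' windows, against 14.0% of all windows and 8.24% of those with at least 60% G and C. Of the genes with a core, Ephb6 was higher and Efnb1, Epha4 and Ephb2 were lower in every KO heart than in any control heart, and Efna5 and Ephb3 overlapped between the groups. A match of letters is a description and not a binding site.

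All values below are log2 signal after the 75th percentile of the array was subtracted, so a probe at 0 was as bright as the probe at that percentile, and levels of different probes are not set against each other. All 10 genes had a probe well above background on all 6 arrays. The KO and control hearts did not overlap for 5 of the 10 genes (1 higher and 4 lower in KO hearts), and over all features the groups did not overlap for 55.9%, with 22.7% higher and 33.2% lower. The median log2 difference of the 10 genes was -0.27, against -0.11 for all features. In the fit over all features, 39.1% passed the adjusted p of 0.05 (16.1% higher and 23.0% lower), and 42.0% among the 13186 genes with a symbol. Because the genes were chosen on this contrast, nothing is read from their share. These are whole hearts, in which fewer cells of a type and less RNA per cell cannot be told apart.

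Among the ligands, Efnb3 had the widest gap between the groups. This B-type ephrin is best known as a midline barrier to axons in the nervous system. Efnb3 stood at -0.74, 1.47 and 1.54 in the KO hearts, against 4.35, 4.32 and 4.15 in the control hearts. Every KO heart was lower than every control heart, by at least 2.60, and KO heart 1 lay well under the other KO hearts while the control hearts lay close together. The means were 0.76 ± 1.30 in KO hearts and 4.27 ± 0.11 in control hearts (SD, n = 3 each), a log2 difference of -3.51 ± 0.59 (SE), or 11.4-fold lower. It ranked 14 from the lowest of all 20014 features by this difference, and 0.36% of features had a larger one in either direction. Without KO heart 1 the difference of Efnb3 was -2.76, and without KO heart 3 it was -3.91.

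Efnb1, a B-type ephrin encoded on the X chromosome that binds EphB receptors, differed less. It stood at 2.98, 3.06 and 2.91 in the KO hearts, against 3.70, 3.41 and 3.68 in the control hearts. The groups did not overlap, and the hearts nearest to each other were 0.35 apart. The means were 2.98 ± 0.08 in KO hearts and 3.60 ± 0.16 in control hearts (SD, n = 3 each), a log2 difference of -0.61 ± 0.13 (SE), or 1.53-fold lower. With spike-in scaling the difference of Efnb1 was -0.37, a move of more than 1.5 times.

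Efnb2, the arterial ephrin, did not separate the groups. It stood at 0.81, 0.88 and 0.32 in the KO hearts, against 0.58, 0.81 and 0.94 in the control hearts. KO heart 3 was the lowest of all, and the other KO hearts lay within the range of the control hearts. The log2 difference of Efnb2 was -0.11 ± 0.19 (SE), with a 95% interval of -0.56 to 0.34, and without KO heart 3 it was 0.067. A second Efnb2 probe was not well above background on any array.

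The A-type ephrins overlapped between the groups as well. Efna1, a ligand of EphA receptors that endothelial cells can be induced to make, stood at 2.57, 2.70 and 2.54 in the KO hearts, against 2.76, 2.69 and 3.15 in the control hearts. KO heart 2 reached just over the lowest control heart, and control heart 3 stood above the rest. The log2 difference of Efna1 was -0.27 ± 0.15 (SE), with a 95% interval of -0.64 to 0.10. It was -0.12 without control heart 3 and -0.023 with spike-in scaling. Efna5, a ligand known as a repellent of growing axons, stood at 1.31, 1.22 and 1.20 in the KO hearts, against 1.47, 1.18 and 1.30 in the control hearts. The log2 difference of Efna5 was -0.07 ± 0.12 (SE), with a 95% interval of -0.36 to 0.22. All of its KO hearts lay inside the control range, and without control heart 1 the difference was 0.0058.

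**Figure D1:**
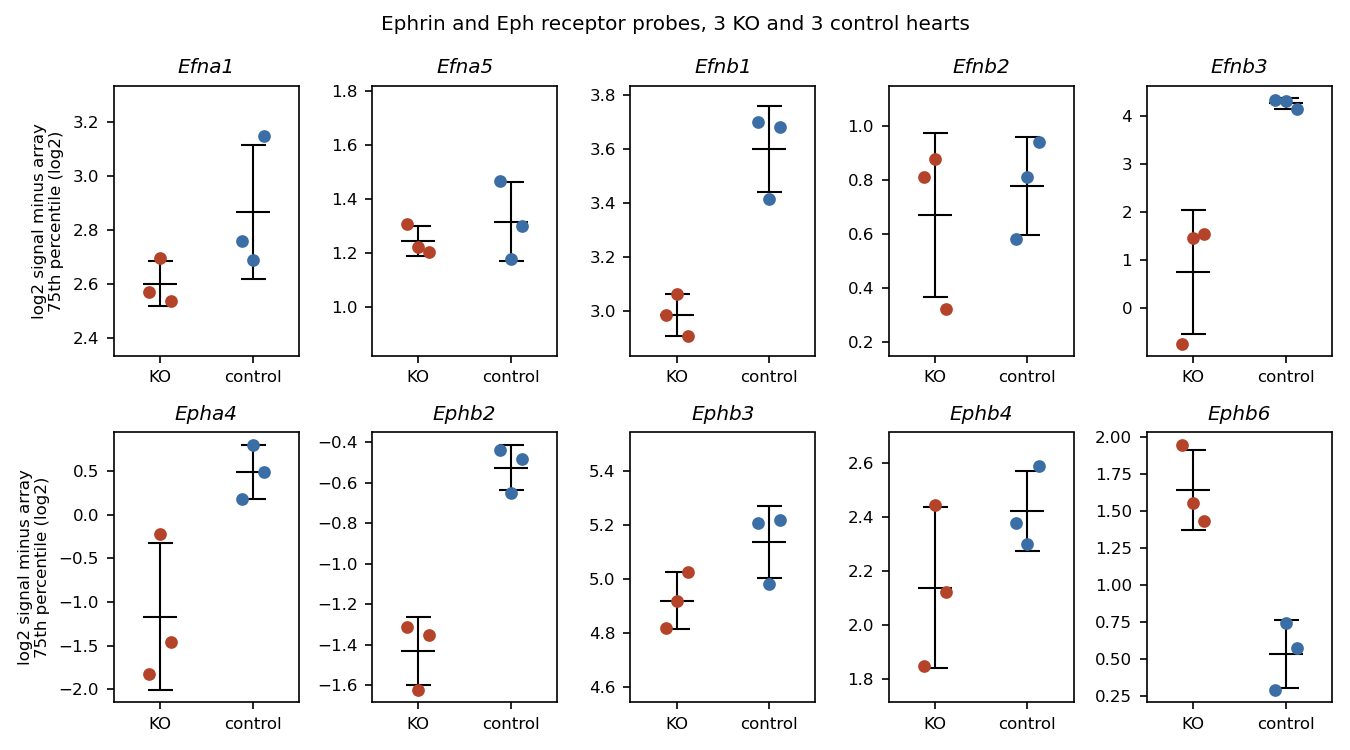
Log2 signal minus the 75th percentile of the array (vertical axis, log2) for each of the 10 genes, with KO hearts left and control hearts right in each panel. Points are hearts, and the line and bar are the mean and SD of 3 hearts, and each panel has its own scale. Efnb3, Epha4, Ephb2 and Efnb1 have every KO heart under every control heart, Ephb6 has every KO heart above, and the other 5 genes overlap.

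Among the receptors, Epha4 and Ephb2 were lower and Ephb6 was higher in KO hearts. Epha4 is a receptor that binds both A-type and B-type ephrins, Efnb3 among them. It stood at -1.83, -0.22 and -1.46 in the KO hearts, against 0.18, 0.80 and 0.49 in the control hearts. Every KO heart was lower than every control heart, with KO heart 2 only 0.39 under the nearest. The means were -1.17 ± 0.84 in KO hearts and 0.49 ± 0.31 in control hearts (SD, n = 3 each), a log2 difference of -1.66 ± 0.42 (SE), or 3.16-fold lower. Without KO heart 2 the difference of Epha4 was -2.13, and without KO heart 1 it was -1.33.

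Ephb2, a receptor for B-type ephrins that guides axons and sorts epithelial cells, stood at -1.31, -1.62 and -1.35 in the KO hearts. In the control hearts it stood at -0.44, -0.65 and -0.48. The groups lay 0.66 apart at their nearest, and within each group the hearts differed little. The means were -1.43 ± 0.17 in KO hearts and -0.53 ± 0.11 in control hearts (SD, n = 3 each), a log2 difference of -0.91 ± 0.14 (SE), or 1.87-fold lower. With normexp background correction the difference of Ephb2 was -0.58.

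Ephb6 is a receptor whose kinase domain lacks catalytic activity. It stood at 1.95, 1.55 and 1.43 in the KO hearts, against 0.29, 0.74 and 0.57 in the control hearts. Every KO heart was higher than every control heart, by at least 0.69. The means were 1.64 ± 0.27 in KO hearts and 0.53 ± 0.23 in control hearts (SD, n = 3 each), a log2 difference of 1.11 ± 0.19 (SE), or 2.16-fold higher. A second Ephb6 probe was well above background on 2 KO arrays and 1 control array, and differed by 0.58.

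Ephb3 and Ephb4 had overlapping groups. Ephb3, which binds B-type ephrins and shares tissues with Ephb2 in development, stood at 4.82, 4.92 and 5.03 in the KO hearts, against 5.21, 4.98 and 5.22 in the control hearts. KO heart 3 stood above control heart 2, and the other KO hearts were under all control hearts. The log2 difference of Ephb3 was -0.22 ± 0.13 (SE), with a 95% interval of -0.52 to 0.09. Ephb4, the venous receptor for ephrin-B2, stood at 1.85, 2.45 and 2.12 in the KO hearts, against 2.38, 2.30 and 2.59 in the control hearts. The log2 difference of Ephb4 was -0.28 ± 0.18 (SE), with a 95% interval of -0.72 to 0.15, and its second probe differed by -0.21. It was -0.44 without KO heart 2, -0.14 without KO heart 1 and -0.04 with spike-in scaling.

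The KO hearts did not share 1 order over the genes. KO heart 1 was the lowest KO heart for 4 of the 10 genes, KO heart 2 for 1 and KO heart 3 for 5. KO heart 1 had the lowest Efnb3, Epha4, Ephb3 and Ephb4 and the highest Ephb6. The differences were recomputed under 18 alternative settings, of which 6 left out a heart, which cannot turn the sign of a gene whose groups do not overlap. Efnb3 ranged from -3.91 to -2.76, Epha4 from -2.13 to -1.15, Ephb2 from -0.97 to -0.58, Efnb1 from -0.75 to -0.37 and Ephb6 from 0.91 to 1.35. Of the overlapping genes, Efna5, Efnb2 and Ephb3 changed sign under at least 1 setting, and Efna1 and Ephb4 did not.

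**Figure D2:**
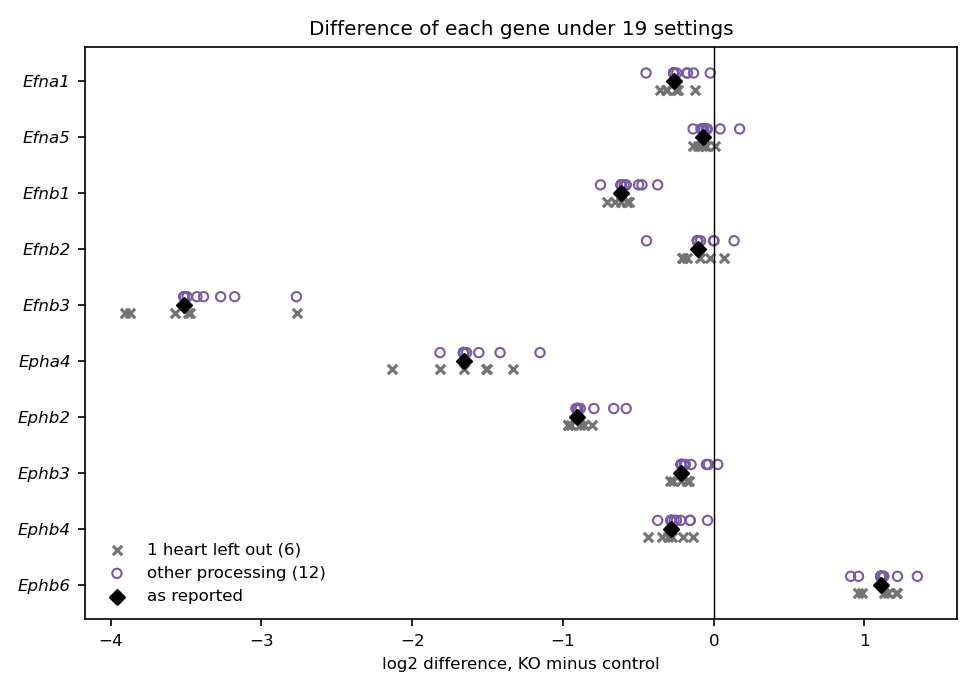
Log2 difference, KO minus control, of each gene (horizontal axis) under 19 settings: as reported (diamonds), with 1 of the 6 hearts left out (crosses) and with 12 other kinds of processing (circles). Efnb3 spans -3.91 to -2.76, Epha4 -2.13 to -1.15 and Ephb6 0.91 to 1.35, and Efna5, Efnb2 and Ephb3 have points on both sides of 0.

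The 12 other ephrins and Eph receptors with a probe were measured as well. Of them, 7 passed the filter on dim probes, and Efna4, Epha3, Epha6, Epha8 and Epha10 did not. None of the 7 passed the adjusted p of 0.05 by limma (39.1% of all features did). Of the 7, 2 had an unadjusted p under 0.05, and the adjusted p ranged from 0.0568 to 0.593. Under at least 1 alternative, 4 of them passed: Epha1, Efna3 without control heart 2 (-0.60, adjusted p = 0.0269) and with array weights, Epha2 with normexp and with array weights, and Epha7 with array weights. With array weights 13713 of all 20014 features passed. The 10 genes had been picked with this contrast known, so their counts and those of the 12 genes cannot be compared as a test.
Epha1, a receptor of epithelial cells, stood at -1.75, -0.49 and -1.07 in KO hearts, against -2.18, -1.71 and -2.57 in control hearts. Its log2 difference was 1.05 ± 0.36 (SE, adjusted p = 0.0568 by limma), and it passed under 9 of the 18 alternatives, with an adjusted p of 0.024 without KO heart 1 and 0.0484 without control heart 2. With normexp the Epha1 difference was 0.43, the lowest of the alternatives, and the adjusted p by limma reached 0.169 among them. The A-type ephrin Efna2 differed by -0.40 ± 0.14 (SE, adjusted p = 0.0577) without overlap between the groups, as did 55.9% of all features. The A-type ephrin Efna3 differed by -0.43 ± 0.19 (SE, adjusted p = 0.108), and its second probe was not well above background on any array. Epha2, a receptor for Efna1, differed by 0.26 ± 0.12 (SE), also without overlap, Epha7 by 0.40 ± 0.38 and Ephb1 by -0.20 ± 0.28. Without KO heart 1 these were 0.15 for Epha7 and 0.11 for Ephb1, and without control heart 3 Epha7 was 0.081. Another Epha7 probe differed by 0.97, with every KO heart above every control heart, by at least 0.016. It was well above background on 3 KO arrays and 2 control arrays, so it passed the filter only through the KO hearts. The remaining Epha7 probe was not well above background on any array and differed by -0.22, with overlap. Epha5, a receptor of neurons, stood at 3.06, 3.51 and 3.51 in KO hearts, against -0.41, 3.61 and 3.85 in control hearts. Control heart 1 alone was low, and the Epha5 difference was 1.01 ± 1.08 (SE) with it and -0.37 without it. A second Epha5 probe was not well above background on any array and differed by 0.02.

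**Figure D3:**
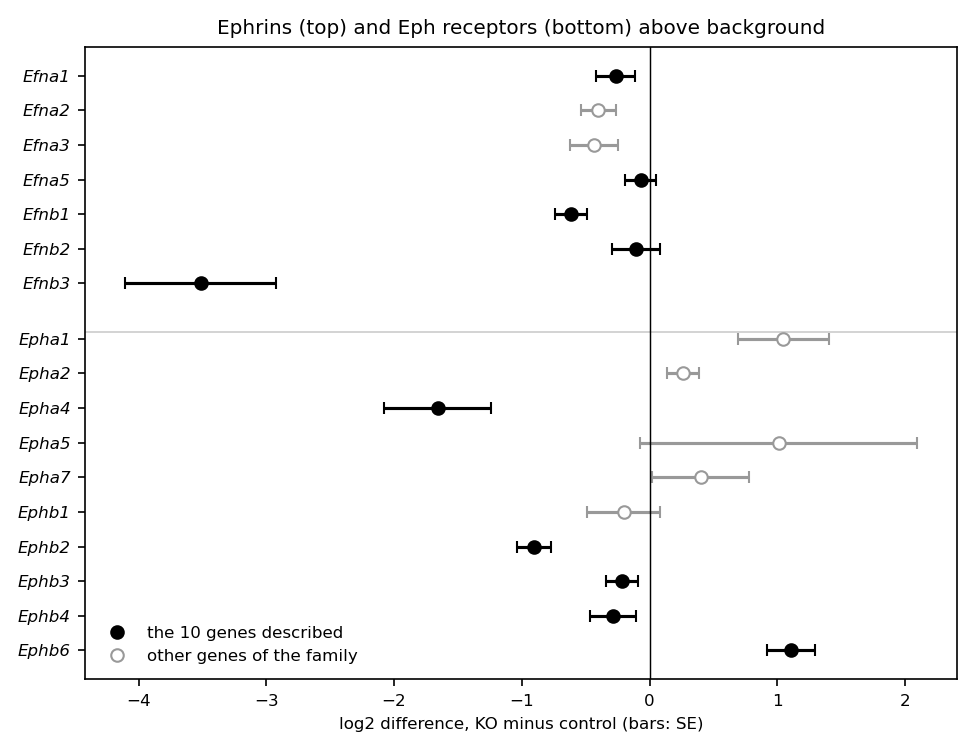
Log2 difference, KO minus control, with SE (horizontal axis) for the ephrins (top) and Eph receptors (bottom) that were above background. Filled points are the 10 genes described and open points the 7 other genes of the family. Efnb3 lies farthest to the left at -3.51, Ephb6 at 1.11 and Epha1 at 1.05 lie farthest to the right, and Epha5 has the longest bar.

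Genes that carry the signal inside the cell were called about as often as other features (37.0%, against 39.1%). Of 51 listed signalling partners 50 had a probe and 46 were tested: 14 were higher (30.4%, against 16.1% of all features), 3 were lower (6.52%, against 23.0%) and 29 did not pass. Their median log2 difference was 0.17, against -0.11 for all features. The number that passed, 17, was 8 without control heart 1, control heart 3 or KO heart 3, 11 without KO heart 1, and 10 with a replicate block. Among the 14 is Pak1, which entered the fit only through the KO hearts. This list and those below were chosen with earlier results of these data known, so nothing is read from their shares.

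By role, 5 of 14 small GTPase switches and their regulators, which turn receptor signals into changes of the cytoskeleton, were higher and none was lower. Ngef, the exchange factor ephexin that acts downstream of Epha4, stood at 1.37, 0.29 and 0.57 in KO hearts, against -2.10, -0.97 and -1.85 in control hearts. Every KO heart was higher than every control heart, with a log2 difference of 2.38 ± 0.38 (SE, adjusted p = 0.00574 by limma). Sipa1l1, a Rap regulator of the cytoskeleton, differed by 0.99 ± 0.14 (SE, adjusted p = 0.00468), and by 0.52 with the mean of its probes. Of 15 adaptors and phosphatases 4 were higher and 1 lower. The docking protein Dok1 differed by 2.27 ± 0.31 (SE, adjusted p = 0.00397) and the adaptor Shc1 by 0.70 ± 0.11 (SE, adjusted p = 0.00567). The lower one was Anks1, an adaptor that binds Eph receptors, which stood at 2.26, 2.97 and 2.83 in KO hearts, against 3.82, 3.54 and 3.93 in control hearts, a difference of -1.08 ± 0.22 (SE, adjusted p = 0.0109).

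Of 9 kinases 2 were higher and 1 lower. Pak1, a kinase that acts on the cytoskeleton and is 1 of the higher ones, was well above background on 3 KO arrays and 1 control array, so it entered the fit only through the group in which it is high. Csk, which holds Src-family kinases in check, differed by 0.93 ± 0.13 (SE, adjusted p = 0.00417 by limma), and by 0.42 with normexp. Rock1, a kinase of the cytoskeleton, differed by -0.48 ± 0.13 (SE, adjusted p = 0.027), and it did not pass under 9 of the 18 alternatives, among them the omission of any heart other than control heart 2, with an adjusted p of 0.0511 to 0.1 for those hearts. Of 7 partners of the ephrin-B tail 2 were higher and 1 lower. The lower one was Pick1, a PDZ protein that binds the ends of B-type ephrins and Eph receptors, which stood at -0.28, -0.29 and -0.38 in KO hearts, against 0.68, 0.45 and 0.53 in control hearts. Its difference was -0.87 ± 0.12 (SE, adjusted p = 0.00387). Adam10, the protease that cuts ephrins and their receptors at the cell surface, was the 1 protease tested and differed by 0.63 ± 0.11 (SE, adjusted p = 0.00821).

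**Figure D4:**
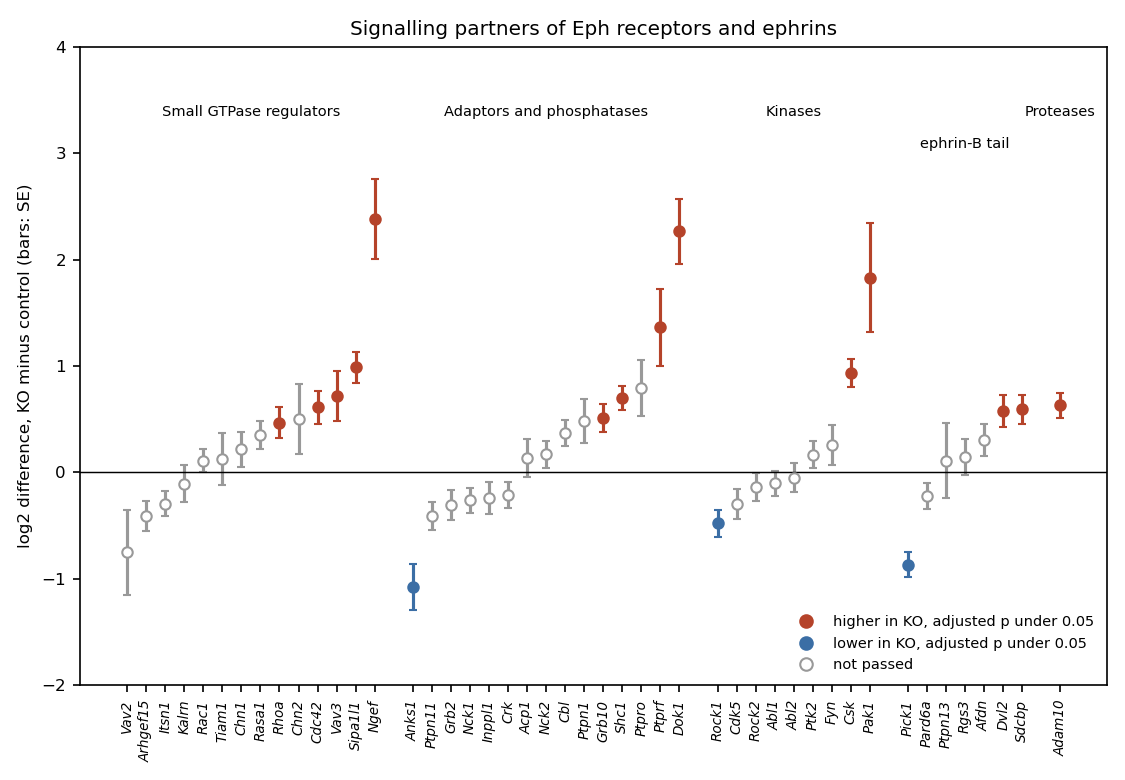
Log2 difference, KO minus control, with SE (vertical axis) for the 46 signalling partners tested, grouped by role. Filled points passed an adjusted p of 0.05 and open points did not. Ngef at 2.38 and Dok1 at 2.27 lie highest among those that passed, and Anks1 at -1.08, Pick1 at -0.87 and Rock1 at -0.48 are the 3 that were lower.

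The other families of guidance cues and receptors held calls in both directions. Of 48 semaphorins, plexins, neuropilins, Slits, Robos, netrins and netrin receptors 37 were tested, of which 10 were higher and 5 lower (40.5% called, against 39.1% of all features). The number that passed, 15, was 9 without control heart 3 or KO heart 3. Sema3d, among the 10 higher, was well above background on 3 KO arrays and 2 control arrays. It thus entered the fit only through the KO hearts. Higher in KO hearts were the semaphorins Sema4d (1.63 ± 0.12, SE) and Sema3f (1.497 ± 0.18), the Slit receptor Robo1 (1.71 ± 0.15) and the netrin receptor Unc5b (1.40 ± 0.23), with adjusted p from 0.00125 to 0.00632 by limma. Lower were the netrin receptor Dcc (-1.90 ± 0.33), the plexins Plxnb3 (-1.35 ± 0.20) and Plxnb1 (-1.19 ± 0.23) and the semaphorin Sema3g (-0.88 ± 0.14). Under normexp the differences were smaller for Robo1 (0.85), Sema4d (1.04), Plxnb3 (-0.80) and Sema3g (-0.50). Plxna3 (1.61 ± 0.40), Unc5a (0.54 ± 0.11) and Sema6c (-0.58 ± 0.13) also passed. Plxna3 was well above background on 3 KO arrays and 1 control array, so it entered the fit only through the KO hearts, and with normexp its difference was 0.24 (adjusted p = 0.0841). Each of these last genes lost its call when control heart 3 was left out, with adjusted p of 0.061 for Plxna3, 0.061 for Unc5a and 0.0508 for Sema6c.

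Because Efnb2 marks arteries and Ephb4 veins, other arterial and venous genes were read beside them. Of 14 arterial genes 2 were higher and 4 lower in KO hearts, and of 8 venous genes 2 were higher and none was lower, so 36.4% of the 22 were called, against 39.1% of all features. The number that passed, 8, was 4 without control heart 1 and 5 without KO heart 3. Notch1, the receptor that sets arterial fate, stood at -2.30, -1.26 and -1.44 in KO hearts, against 0.68, -0.19 and 0.83 in control hearts. Its difference was -2.11 ± 0.37 (SE, adjusted p = 0.00719 by limma). The chemokine receptor Cxcr4 differed by 1.30 ± 0.12 (SE, adjusted p = 0.00209), and by 0.46 with normexp. Sox17 differed by -0.69 ± 0.14 and Hey1, a Notch target, by -0.66 ± 0.16 (SE), and both lost their calls without control heart 1, with adjusted p of 0.0548 for Sox17 and 0.0612 for Hey1. Of the venous genes, Aplnr differed by 0.93 ± 0.24 and Vcam1 by 1.02 ± 0.28 (SE), and they too lost their calls without control heart 1, with adjusted p of 0.0765 for Aplnr and 0.103 for Vcam1.

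Markers of the cells in a heart differed between the groups in these same arrays, and their part in the differences of the ephrins and Eph receptors was not tested. Of the 8 cardiomyocyte markers, all tested, 7 were lower in KO hearts, Pln (-1.92 ± 0.24, SE) and Tnni3 (-1.57 ± 0.19) among them (all features: 23.0% lower, 16.1% higher). The count of 7 was 3 without control heart 1, control heart 3, KO heart 1 or KO heart 3, and 3 with quantile or cyclic loess scaling. Their summed signal, in multiples of the 75th percentile, ranged from 4496 to 5400 in KO hearts and from 6745 to 9109 in control hearts. The mean log2 level of these markers was 7.89, 8.19 and 8.24 in the KO hearts, against 9.11, 8.79 and 9.06 in the control hearts, and the median log2 difference over the 8 markers was -0.70. Of 8 fibroblast markers 5 were higher and none was lower, led by Postn (4.63 ± 0.51) and Col1a1 (2.64 ± 0.44), with sums of 876 to 964 in KO hearts and 383 to 658 in control hearts. The count of 5 was 3 without control heart 1, control heart 3 or KO heart 3.

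Of 10 endothelial markers, the cell type in which Efnb2 and Ephb4 mark arteries and veins, none passed, and 3 had an unadjusted p under 0.05 by limma. Tek differed by -0.69 ± 0.25 (SE, adjusted p = 0.0665) and Robo4 by -0.53 ± 0.21. With array weights 4 endothelial markers passed, all lower, but under that setting 13713 of all 20014 features passed, 8394 of them lower. Robo4 passed without KO heart 2 (adjusted p = 0.0456), while Tek was -0.41 without control heart 2. Under normexp 1 endothelial marker passed, and it was higher, and with trend and robust variance 1 passed, and it was lower. The endothelial sums ranged from 179 to 274 in KO hearts and from 210 to 243 in control hearts. Of 6 Schwann and neuronal markers tested 3 were higher and 2 lower, with Uchl1 at 3.09 ± 0.37 and Th at -0.79 ± 0.13 (SE), a median of 0.04, and sums of 7.41 to 13.0 in KO hearts and 4.55 to 4.95 in control hearts. The count of 5 was 3 without control heart 1, control heart 3, KO heart 1 or KO heart 2. Smooth muscle and pericyte markers had 3 of 9 higher and 4 lower (Cnn1 3.06 ± 0.31, Kcnj8 -1.40 ± 0.20), a median of -0.41, and sums of 178 to 281 in KO hearts and 164 to 176 in control hearts. Macrophage markers had 3 of 5 higher and none lower (Adgre1 1.88 ± 0.31, Csf1r 0.95 ± 0.21), with sums of 120 to 190 in KO hearts and 64.2 to 97.9 in control hearts, and 1 passed without control heart 1 or control heart 3. Lymphatic markers had 1 of 4 higher (Pdpn 1.54 ± 0.45) and 2 lower (Prox1 -1.24 ± 0.18), a median of -0.52, and sums of 11.04 to 14.6 in KO hearts and 6.25 to 11.9 in control hearts, and 1 passed without control heart 1, control heart 3 or KO heart 3. A sum follows its brightest genes, so sum and median can point different ways. No epicardial marker of 6 passed (Tbx18 0.71 ± 0.27, Krt8 1.08 ± 0.92), and their sums ran from 16.4 to 24.5 in KO hearts and from 6.89 to 44.4 in control hearts, with control heart 2 the highest. Without control heart 2, 4 epicardial markers passed, all higher in KO hearts, and Krt8 differed by 2.17. Krt8 was well above background on 3 KO arrays and 2 control arrays, so it entered the fit only through the KO hearts. Its difference with normexp was 0.22. Csf1r and Pdpn lost their calls without control heart 1, with adjusted p of 0.0553 for Csf1r and 0.113 for Pdpn.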

How the data were processed

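Total RNA of 3 KO and 3 control hearts was hybridised to 1-colour (Cy3) Agilent arrays, 1 per heart, all on 1 slide read in 1 scan. KO and control arrays lay in different columns of that slide, so position and group cannot be told apart and no slide block could be fitted. The deposited scanner files hold spot intensity on a linear scale, background-subtracted by Agilent Feature Extraction 11.0.1.1 per the file headers, and 0 or 1 flags that mark spots as well above background, as saturated or as outliers. The deposited value table is on the log2 scale, made with Feature Extraction and R 3.1.3 per the submitters' processing notes. How the authors normalized it is not given in the sources used. In it, 94.9% of differences between arrays equalled those of the scanner files within 0.001 after 1 constant per array, and 94.2% of rows had a median of 0. Its column medians were -0.04, -0.05 and -0.02 for KO and 0.09, -0.02 and 0.07 for control arrays. It served only as an alternative.

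The log2 of the processed signal minus each array's 75th percentile was taken after control spots and flagged outliers were left out and repeated spots averaged. Of 55681 probes, 55608 were kept. A probe entered the fit if all arrays of the KO group or all of the control group had it well above background, and each gene was its probe with the highest mean. Symbols came from RefSeq accessions, which named 26551 probes. Array position annotation was not used. Limma 3.58.1 (R 4.3.3, tables read by data.table, version 1.17.8) gave 2-sided moderated tests with Benjamini-Hochberg adjustment at 0.05, over all features, and was tested on simulated data first. The smallest p that an exact permutation test allows for a gene in this design is 0.1. The number of arrays limits the precision.

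The genes described and the gene lists were chosen with earlier results of these data known. Named besides were Egln1 and Egln3, the 12 other genes of the family, up to 6 genes with the smallest p in each direction from each of the partner, guidance and arterial and venous lists, and 2 per marker list. Alternatives were normexp (offset 50, on the median signal), quantile, cyclic loess, median and spike-in scaling (7 E1A probes), the deposited table, other filters, the mean of probes, trend and robust variance, array weights, the replicate block and leaving out each heart. Cd68 had no matched probe. The replicate numbers are not stated to mark a shared litter or day. Hearts with the same number lay in the same row of the slide, and their deviations correlated at -0.15, -0.12 and -0.08. So few pairs cannot show whether such hearts share anything more.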

Additional observations from a re-analysis of the deposited data

How the results depend on the processing

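The median log2 difference of the 10 ephrins and Eph receptors was -0.27 and became -0.032 with E1A spike-in scaling. Efna5 turned to 0.043 with cyclic loess and 0.17 with E1A scaling, and ranged from -0.14 to 0.0058 with 1 heart left out (highest without control heart 1). Efnb2 turned to 0.0024 with normexp and 0.14 with E1A scaling, and ranged from -0.21 to 0.067 with 1 heart left out (highest without KO heart 3). Ephb3 turned to 0.027 with E1A scaling. The Epha5 difference turned to -0.37 without control heart 1, and that of Ephb1 to 0.039 with E1A scaling and 0.11 without KO heart 1. Against 7817 calls over all features, there were 4345 with no filter on dim probes, where 37174 features were tested, 13713 with array weights and 4862 with the replicate block. Against 17 partner genes called, these settings gave 9, 32 and 10. Against 15 guidance genes, no filter gave 9 and array weights 26. Against 8 arterial and venous genes, they gave 4, 15 and 5. Leaving out 1 heart gave 3904 to 8694 calls over all features, 8 to 21 partner genes, 9 to 16 guidance genes and 4 to 8 arterial and venous genes. Same-numbered hearts lay in the same row of the slide, so the replicate block is also a block by row. The cause of these moves was not tested. Processed signals over the 6 arrays were 66.3 to 350.3 for Epha4 and 60.5 to 127.7 for Ephb2, and with normexp they differed by -1.15 and by -0.58.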
